A study of Mus musculus with 2 samples.

Results

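The genes described here are 8 genes of retinoid metabolism, Rbp7, Adh1, Dhrs3, Aldh1a1, Aldh1a2, Aldh1a3, Cyp26b1 and Rarb, out of 32285 genes counted in single-cell RNA sequencing (scRNA-Seq) of the mouse temporomandibular joint (TMJ). They were picked by symbol with their levels by cell type and treatment already known, so all levels and ratios below are descriptions and none was tested. Cells with at least 500 genes, at most 10% mitochondrial unique molecular identifiers (UMIs, which count captured RNA molecules) and at most 1% hemoglobin UMIs were used. All 8 genes had UMIs in both libraries.

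The study compared joints injected with PBS with joints injected with CFA (complete Freund's adjuvant, which causes inflammation). There was 1 library per treatment, so differences between them have no replicate check. All mice were wild-type (WT) C57BL/6, labelled 8-10 weeks old. Each joint of females aged 8 weeks received a 10 µL injection, either PBS or CFA (5 mg/mL), and joints were taken 3 weeks later (n = 3 in the methods, not separable in the counts), and CD45+ immune cells were depleted with beads before loading. The whole joint region, with bone, disc, muscle and ligament, was digested, and the labels and methods differ in enzymes and kit version.

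Vitamin A (retinol) travels and is held in cells on binding proteins, is oxidized by alcohol and retinol dehydrogenases to retinaldehyde, and is oxidized again by the retinaldehyde dehydrogenases of the Aldh1a family to retinoic acid. Retinoic acid binds nuclear receptors that act as transcription factors on DNA, and enzymes of the Cyp26 family break it down. Retinoic acid is known for its part in cartilage and bone formation and in vessel development, where the balance of synthesis and breakdown sets its local level.

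By role, Rbp7 is a cellular retinol-binding protein and Adh1 an alcohol dehydrogenase that oxidizes retinol. Dhrs3 turns retinaldehyde back to retinol. Aldh1a1, Aldh1a2 and Aldh1a3 make retinoic acid, Cyp26b1 degrades it, and Rarb, retinoic acid receptor beta, is a receptor whose own gene is a known retinoic acid target. All are protein-coding genes on GRCm38. Cyp26b1 (ENSMUSG00000063415) lies on chromosome 6 from 84571414 to 84593908 on the minus strand, and Rbp7 (ENSMUSG00000028996) on chromosome 4 from 149449687 to 149454978, also on the minus strand. Dhrs3 (ENSMUSG00000066026) is on the same chromosome, from 144892827 to 144928209 on the plus strand. Adh1 (ENSMUSG00000074207) lies on chromosome 3 from 138260991 to 138290698, Aldh1a1 (ENSMUSG00000053279) on chromosome 19 from 20492715 to 20643465 and Aldh1a2 (ENSMUSG00000013584) on chromosome 9 from 71215789 to 71296243, all on the plus strand. Aldh1a3 (ENSMUSG00000015134) lies on chromosome 7 from 66390890 to 66427517 and Rarb (ENSMUSG00000017491) on chromosome 14 from 16430839 to 16819156, both on the minus strand.

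The RefSeq promoter table (GRCm38.p6, 250 bases before to 50 after a start site) held 10 promoters of 7 of the 8 genes, with none for Aldh1a3. They were searched on both strands for direct repeats of the short unit that retinoic acid receptors recognise, with 5 bases between the repeats (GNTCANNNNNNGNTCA) or 2 bases (GNTCANNNGNTCA). The pattern with 5 bases was in 283 of 32851 promoters (0.861%) and that with 2 bases in 367 (1.12%). In the 10 promoters it was found once, in that of Rarb, beginning 52 bases before the start site. The 150 bases before the start sites of Rarb, of Cyp26b1 and of Rbp7 are shown because the results below turn on these genes, with capitals marking the match. A match is a description of letters and not of binding, and no match says only that these letters are not in the window.
Rarb, chr14:16575477-16575626, minus strand: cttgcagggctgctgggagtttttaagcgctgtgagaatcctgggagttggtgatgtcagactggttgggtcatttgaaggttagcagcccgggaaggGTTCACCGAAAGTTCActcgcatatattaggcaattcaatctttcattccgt
Cyp26b1, chr6:84593811-84593960, minus strand: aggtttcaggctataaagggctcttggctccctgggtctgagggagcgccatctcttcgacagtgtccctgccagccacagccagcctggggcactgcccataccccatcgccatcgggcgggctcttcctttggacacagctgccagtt
Rbp7, chr4:149454969-149455118, minus strand: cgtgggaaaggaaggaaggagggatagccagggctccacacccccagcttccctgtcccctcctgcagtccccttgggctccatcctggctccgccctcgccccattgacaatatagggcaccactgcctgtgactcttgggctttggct

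The limits left 2667 PBS and 4014 CFA cells with 27201994 and 44432717 UMIs, a median of 7022 and 6509.5 UMIs per cell, and 2 barcode sequences in both libraries. The hemoglobin limit removed 54.4% of the PBS and 7.79% of the CFA barcodes that passed the other limits. In those removed PBS barcodes Cyp26b1 was at 17.6 CPM (the UMIs of a gene scaled to the total UMIs of a group of cells), against 39.7 CPM in the kept PBS cells. Aldh1a1 went the other way, at 59.2 CPM in removed and 39.5 CPM in kept barcodes of PBS, and 81.8 and 21.3 CPM in CFA. All other members were lower in the removed barcodes of either library. The libraries stood apart in a further way. Of 7 secretory gland genes (Obp1a, Obp1b and others, listed after their values were seen), the endothelial-like cells of the PBS library held 423 CPM in all and those of the CFA library held 0. The same genes summed to between 175 and 656 CPM in the PBS cells of the 10 classes compared, and 1 UMI was found in those classes of the CFA library. They led a cluster left without a name (92 PBS and 65 CFA cells), which also passed 3 erythroid markers, Hba-a1, Car2 and Ermap. Its PBS cells held 3 UMIs of Cyp26b1 and 2 of Rbp7, but Adh1 at 36.8 and Aldh1a1 at 44.6 CPM. The part of gland or erythroid RNA in the levels of Adh1 and Aldh1a1 was not tested.

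Clusters were made without the retinoid genes and named from canonical markers, with "-like" added. Of 36 clusters, 33 were named, in 14 classes, and 10 classes had at least 50 cells in both libraries. In endothelial-like cells all 8 endothelial markers (Pecam1, Cdh5, Kdr and others) had UMIs, and their sum was 8813 CPM in PBS and 8137 in CFA. The same markers gave these clusters their name, so the sums are no separate check of it. The 95% intervals below are exact and cover counting error only. Because of 3′ counting, no level of 1 gene is compared with that of another.

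Cyp26b1, the retinoic acid-degrading enzyme, was highest in endothelial-like cells of both libraries. It stood at 107 CPM (95% interval 98.9 to 115, 651 UMIs in 802 cells) in PBS and at 34.1 CPM (30.0 to 38.7, 247 UMIs in 1241 cells) in CFA, a CFA to PBS ratio of 0.319 (0.275 to 0.370). Mural-like cells, the smooth muscle cells and pericytes of the vessel wall, came next at 57.9 CPM in PBS and 28.1 in CFA. The leading class was the same in both libraries, and in PBS the endothelial and mural intervals did not overlap, whereas in CFA they did. Chondrocyte-like cells (34.8 and 16.8 CPM), fibroblast-like cells (33.6 and 20.8) and tenocyte-like cells (20.5 and 15.4) followed in PBS, with overlap between the first pair. The other 5 classes, osteoblast-, Schwann-, satellite cell-, neutrophil- and B cell-like, stood between 0 and 5.14 CPM in either library.

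A UMI of Cyp26b1 was found in 187 (23.3%) of the PBS and 159 (12.8%) of the CFA endothelial-like cells, with a median of 5289 and 3958 UMIs per cell. In neutrophil-like cells, which should lack it, the shares were 1.39% and 0.570% at 7971 and 4492 UMIs per cell. With every cell thinned to 1000 UMIs (23 PBS and 66 CFA endothelial-like cells were too shallow), the shares became 8.99% (7.07 to 11.2) and 4.26% (3.17 to 5.57). The lower CFA share was therefore seen at equal depth too. Fewer expressing cells and less RNA per cell both enter the summed level.

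The remaining vessel genes were led by endothelial-like cells as well. Rbp7 stood at 138 CPM (129 to 148) in PBS and 202 (192 to 212) in CFA, a ratio of 1.46 (1.34 to 1.59), and the thinned share of cells with a UMI was 9.50% and 18.6%. Outside endothelial cells Rbp7 was at 79.0 and 29.4 CPM in mural-like cells and at 10.9 CPM or less in the other 8 classes. Adh1 was at 97.6 and 81.7 CPM in endothelial-like cells, against 17.1 and 11.6 in fibroblast-like cells, the next class. Dhrs3 was at 143 and 144 CPM, a ratio of 1.01 (0.924 to 1.11). Unlike the other vessel genes, Dhrs3 was spread widely, with 117 and 76.1 CPM in mural-like cells, and its lowest level, 2.63 and 4.77 CPM, was in satellite cell-like cells. Macrophage-like cells (19 PBS and 313 CFA) and osteoclast- or Spp1 macrophage-like cells (1 and 269) had too few PBS cells to be compared. They held 11.9% and 19.3% of the Dhrs3 UMIs of the CFA library, against 32.6% in endothelial-like cells. In B cell-like cells Dhrs3 was at 9.56 CPM on 10 UMIs in PBS and 35.2 CPM on 28 UMIs in CFA.

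**Figure D1:**
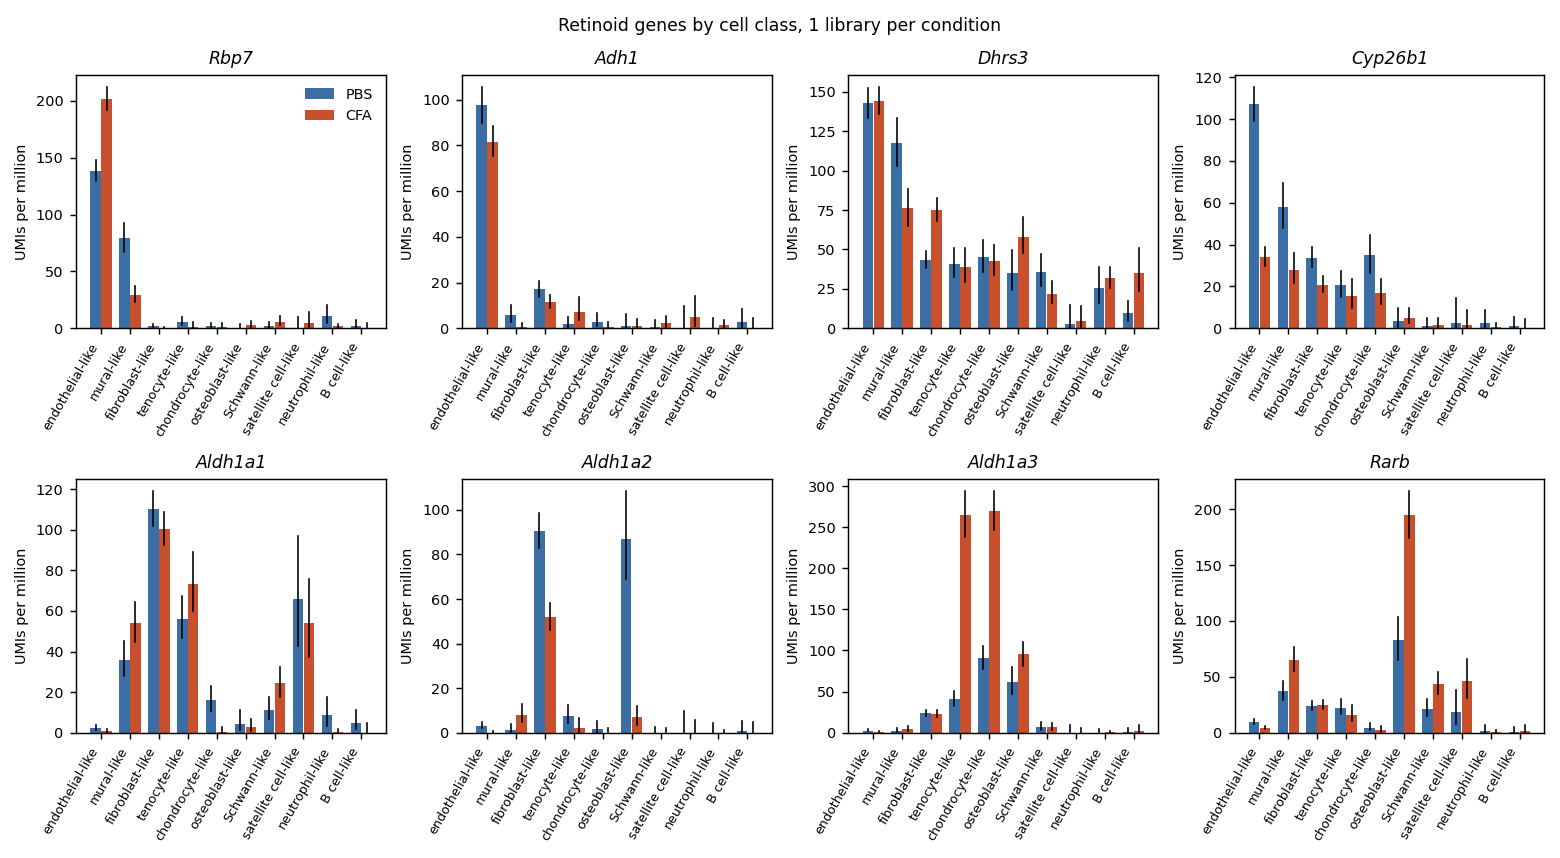
Levels of the 8 genes in CPM (y axes, each starting at 0) in the 10 cell classes (x axes) of the PBS (blue) and CFA (orange) library, with exact 95% Poisson intervals as black lines. Rbp7, Adh1, Dhrs3 and Cyp26b1 were highest in endothelial-like cells, Aldh1a1 and Aldh1a2 in fibroblast-like, Aldh1a3 in chondrocyte-like and Rarb in osteoblast-like cells.

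The retinoic acid-synthesizing genes lay outside the endothelium. Aldh1a1 was highest in fibroblast-like cells (110 CPM in PBS and 100 in CFA), followed in PBS by satellite cell-like (65.8 and 54.1) and tenocyte-like cells (56.3 and 73.4), whose intervals overlapped each other in either library. Aldh1a2 was at 90.5 and 52.0 CPM in fibroblast-like cells. In endothelial-like cells Aldh1a1 was at 2.14 and 0.829 CPM and Aldh1a3 at 2.46 and 1.11 CPM. Aldh1a2 had 19 UMIs in PBS endothelial-like cells, 18 of them in 1 cell, and 0 UMIs in CFA, where a count of 0 allows up to 0.415 CPM.

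Aldh1a3 led in skeletal cells, except that fibroblast-like cells led in both libraries with cells classed singly, and tenocyte-like cells with log-normalized, unintegrated counts. It was at 90.8 CPM (77.2 to 106) in PBS and 270 (247 to 294) in CFA chondrocyte-like cells, at 61.7 and 95.3 in osteoblast-like cells, and at 41.0 and 265 in tenocyte-like cells. The chondrocyte-like and tenocyte-like levels in CFA had overlapping intervals. Rarb was highest in osteoblast-like cells (82.7 CPM in PBS and 195 in CFA), then in mural-like cells (36.9 and 65.0), although mural-like cells led under 5 of the alternative settings given in the closing section. In endothelial-like cells, where the degrading enzyme was highest, Rarb was at 9.69 and 4.42 CPM.

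Between CFA and PBS, a gene with at least 20 UMIs over both libraries was called when its ratio was 2 or more, or 0.5 or less. In endothelial-like cells 3 of 6 counted members were called, all lower in CFA (Cyp26b1, Rarb and Aldh1a3), against 11.2% of all 12841 genes counted, 4.89% higher and 6.33% lower. The median log2 ratio was -0.69 over those 6 genes and -0.01 over all genes. Only Cyp26b1 of the 3 was called from many UMIs. Rarb fell on 59 and 32 UMIs to a ratio of 0.456 (0.287 to 0.713), and Aldh1a3, with 15 and 8 UMIs and a ratio of 0.449, had an interval that included 1 (0.165 to 1.13). Under 6 alternative settings the count of called members was 1, and the Aldh1a3 ratio was 1.66 as a mean over cells.

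**Figure D2:**
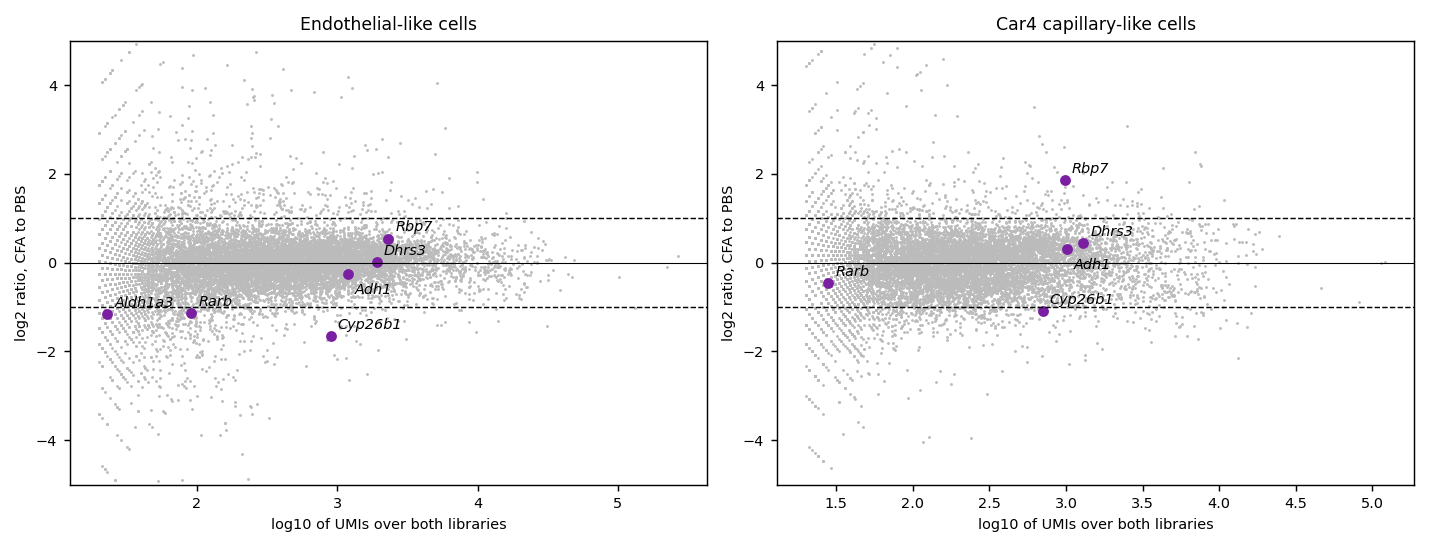
The log2 ratio of CFA to PBS (y axis) against the log10 of UMIs over both libraries (x axis) for each gene with at least 20 UMIs and with UMIs in both libraries (gray) and for the members (purple), in endothelial-like cells (left) and Car4 capillary-like cells (right); dashed lines mark 2-fold, and the y axis ends at 5 in either direction. Cyp26b1 lies below the lower line in both panels, and Rbp7 lies above the upper line in capillary-like cells alone.

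Endothelial subtypes differed in which of these genes they carried. Car4 capillary-like cells (515 PBS and 696 CFA cells) held Cyp26b1 at 151 CPM in PBS and 71.3 in CFA, a ratio of 0.470 (0.398 to 0.554). In the same cells Rbp7 was at 70.9 CPM in PBS and 258 in CFA, a ratio of 3.64 (3.14 to 4.24) on 232 and 749 UMIs. The share of capillary-like cells with an Rbp7 UMI was 16.3% (13.2 to 19.8) and 39.4% (35.7 to 43.1), and at 1000 UMIs per cell 4.76% and 19.5%. Capillary-like cells of the CFA library thus had fewer UMIs of Cyp26b1 and more of Rbp7 at equal totals. Of 5 members counted, 1 was called higher and 1 lower, against 12.5% of all genes in either direction, 5.07% higher and 7.43% lower. Adh1 (147 and 182 CPM, ratio 1.24) and Dhrs3 (179 and 244 CPM, ratio 1.36) stayed within 2-fold.

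The capillary-like cells fell into a pair of subclusters, called A and B here. Cyp26b1 was lower and Rbp7 higher in CFA in both, though for Cyp26b1 the difference passed 2-fold in A alone (13.6% of all genes did so in A and 11.4% in B, in either direction). Capillary-like A, led by Bmp6, Prkd1 and Hdac9, had Cyp26b1 at 127 and 53.2 CPM and Rbp7 at 74.6 and 255 CPM. Capillary-like B was led by Timp4 and by the lipid-handling genes Lpl and Gpihbp1, and Adh1 and Cyp26b1 were among its 10 leading genes although neither was used for clustering. It had Cyp26b1 at 187 and 104 CPM, a ratio of 0.558 (0.441 to 0.702), and Rbp7 at 65.5 and 263 CPM, a ratio of 4.02 (3.15 to 5.17). Dhrs3 was at 206 and 331 CPM in B, against 161 and 196 in A. Adh1 was at 203 and 211 CPM in B, against 108 and 167 in A.

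In arterial-like cells (126 and 154 cells, marked by Gja5, Sox17 and Gja4) Rbp7 was higher than in the other named endothelial subtypes of the same library. It was at 410 CPM (372 to 451) in PBS and 462 (422 to 505) in CFA, a ratio of 1.13 (0.987 to 1.29). Cyp26b1 had 74 UMIs in 25 cells in PBS, or 71.5 CPM, and 6 UMIs in 4 cells in CFA, or 5.74 CPM, which gives a ratio of 0.0802 (0.0285 to 0.183). Adh1 was at 23.2 and 5.74 CPM (with no hemoglobin limit its ratio was 1.35) and Dhrs3 at 99.5 and 51.6 CPM. In all, 2 of 5 counted members were called, both lower, against 11.1% of all genes, or 5.88% for the lower direction.

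Plvap venular-like cells (109 and 186 cells), the vessels where leukocytes leave the blood, had 3 of 4 counted members called, all lower in CFA, against 12.3% of all genes, or 7.18% for the lower direction. Cyp26b1 was at 41.9 CPM in PBS and 8.11 in CFA, a ratio of 0.193 (0.113 to 0.318), which became 0.774 with log-normalized, unintegrated counts. Rbp7 was at 80.6 and 37.6 CPM, a ratio of 0.467 (0.355 to 0.612), so that venular-like and capillary-like cells went in opposite directions for this gene. Adh1 was at 53.3 and 15.8 CPM, and Dhrs3 at 97.9 and 84.8 CPM. The share of venular-like cells with an Rbp7 UMI was 26.6% in PBS and 25.3% in CFA, at a median of 11049 and 12694.5 UMIs per cell. Thinned to 1000 UMIs it was 6.42% (2.62 to 12.8) and 2.69% (0.878 to 6.16), with overlapping intervals, so the shares do not show the difference that the summed level does.

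Markers of other cells moved with some of these values. The 8 fibroblast markers, all with UMIs in either library, summed to 1124 CPM in PBS and 170 CPM in CFA venular-like cells, to 169 and 86.1 CPM in arterial-like cells, and to 159 and 117 CPM in capillary-like cells. The 9 mural markers, all with UMIs in venular-like and capillary-like cells of either library, summed to 1253 and 109 CPM in venular-like cells and to 143 and 25.8 CPM in capillary-like cells. In arterial-like cells they summed to 177 and 199 CPM, while the Schwann markers summed to 851 and 20.1 CPM. The part of mural, fibroblast or Schwann RNA in these levels was not tested. The 9 Car4 capillary markers summed to 16707 and 8840 CPM in arterial-like cells, to 12689 and 7998 CPM in venular-like cells and to 26385 and 21292 CPM in capillary-like cells. Their part in the lower Cyp26b1 of the CFA library was not tested. Fibroblast-like cells themselves held Cyp26b1 at 33.6 CPM and their markers at 33606 CPM in PBS. The 9 neutrophil markers summed to 124 and 447 CPM in capillary-like cells, and the 9 arterial markers to 224 and 254 CPM. A further endothelial subcluster (45 PBS and 194 CFA cells) had a median of 1158 and 1188.5 UMIs, was led by S100a8 and S100a9 and got no subtype name. Without it the Cyp26b1 ratio in endothelial-like cells was 0.321 in place of 0.319 and the number of called members was 3.

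**Figure D3:**
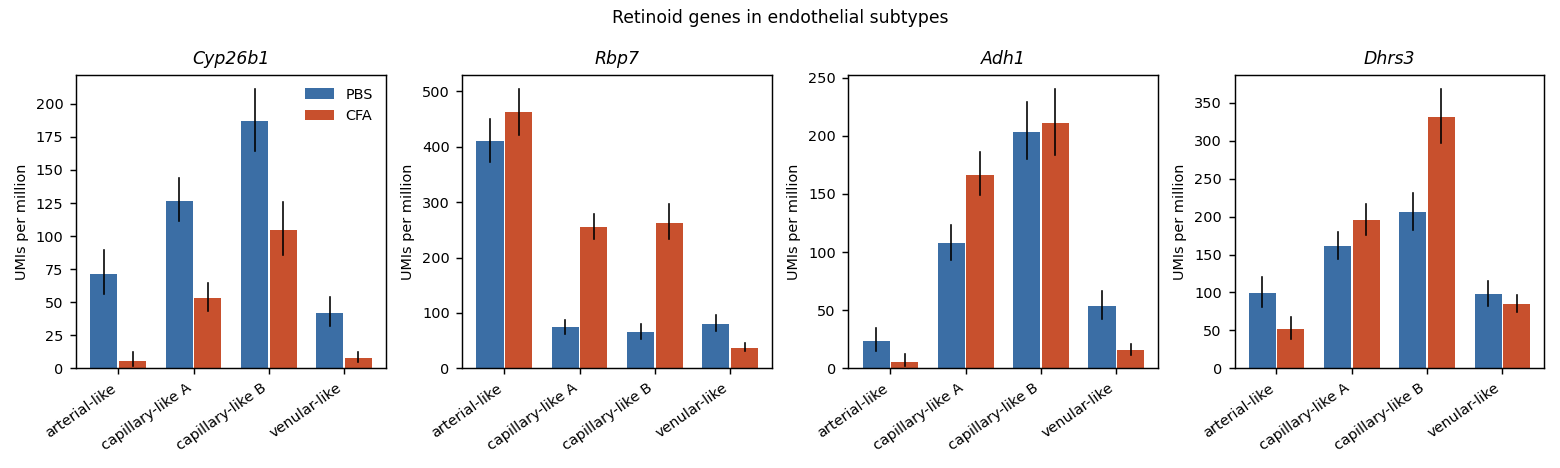
Levels of Cyp26b1, Rbp7, Adh1 and Dhrs3 in CPM (y axes, from 0) in arterial-like cells, both capillary-like subclusters and venular-like cells of the PBS (blue) and CFA (orange) library, with exact 95% Poisson intervals. Cyp26b1 was lower in CFA in each group, from 71.5 to 5.74 in arterial-like cells, while Rbp7 was higher in both capillary-like subclusters.

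Within single capillary-like cells, Cyp26b1 and its fellow genes overlapped in part. Of the 141 PBS cells with a Cyp26b1 UMI, 77.3% also had a Dhrs3 UMI, against 42.0% of the 374 cells without. In CFA these shares were 67.9% and 48.8%. Adh1 was seen in 44.7% of PBS cells with Cyp26b1 and in 38.2% of those without, and Rbp7 in 19.9% and 15.0%. Cells with Cyp26b1 were deeper, with a median of 5530 UMIs against 4582 in PBS, and the part of depth in these shares was not tested.

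Mural-like cells (179 and 223 cells) had 3 of 6 counted members called, 1 higher and 2 lower in CFA, against 8.83% of all genes, 3.76% higher and 5.07% lower. Cyp26b1 had a ratio of 0.484 (0.350 to 0.665) and Rbp7 of 0.372, on 154 and 66 UMIs, which became 2.56 with cells classed singly from their own markers. Aldh1a2 was called higher on 2 and 18 UMIs, of which 16 lay in 1 cell. The class joined a smooth muscle cluster led by Myh11 (98 and 153 cells) and a cluster led by Actg2 and Rgs5 that also had the pericyte genes Vtn and Abcc9 (81 and 70 cells), and the genes separated by cluster. The leading genes of the latter, called the Rgs5 cluster, also included the smooth muscle genes Actg2, Cnn1 and Synpo2. Either cluster passed all 9 mural markers, with Myh11 and Acta2 among them, so the names do not part smooth muscle cells from pericytes. The 9 neutrophil markers summed to 94.6 CPM in PBS and 3274 in CFA in the smooth muscle cluster, and their part in its levels was not tested.

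Cyp26b1 was mostly in the Rgs5 cluster, at 122 CPM in PBS and 87.7 in CFA, a ratio of 0.719 (0.505 to 1.01), against 14.6 and 5.52 in the smooth muscle cluster. Aldh1a1 was there as well, at 87.6 and 180 CPM, a ratio of 2.06 (1.51 to 2.82), while the smooth muscle cluster held 1 and 10 UMIs. Rbp7 was mostly in the smooth muscle cluster, at 128 and 36.8 CPM. In that cluster the 8 endothelial markers summed to 2198 CPM in PBS and 701 in CFA, and their part in the Rbp7 level was not tested. Rarb was at 38.7 and 62.0 CPM in the smooth muscle and 34.3 and 73.1 in the Rgs5 cluster.

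In fibroblast-like cells (513 and 384 cells) 0 of 7 counted members were past 2-fold, against 13.5% of all genes, 8.28% higher and 5.22% lower. The ratio was 0.909 (0.812 to 1.02) for Aldh1a1, 0.575 (0.498 to 0.664) for Aldh1a2, 0.960 (0.750 to 1.23) for Aldh1a3, 0.618 (0.489 to 0.779) for Cyp26b1, 1.73 (1.48 to 2.03) for Dhrs3, 0.680 (0.492 to 0.936) for Adh1 and 1.05 (0.824 to 1.33) for Rarb. As a mean over cells, the Cyp26b1 ratio turned to 1.59, and the Aldh1a3 ratio was 2.61 with 50 principal components and 2.33 with cells classed singly. Subtypes spread around these values. Pi16 adventitial-like fibroblasts (132 and 164 cells) had 4 of 7 counted members called, 2 in each direction, against 14.2% of all genes, 8.40% higher and 5.80% lower. Dhrs3 was at 31.9 and 77.8 CPM there and Rarb had 21 and 86 UMIs, a ratio of 2.20 (1.35 to 3.74), both higher in CFA. Aldh1a2 was at 108 and 50.6 CPM and Adh1 at 9.69 and 3.37, both lower.

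Pi16-negative sublining-like fibroblasts (162 and 130 cells) had 0 of 6 counted members called, against 17.7% of all genes. They held Aldh1a1 at 152 and 166 CPM, Aldh1a2 at 166 and 92.6, and Adh1 at 58.6 and 44.2. Cyp26b1 was at 52.3 and 27.2 CPM in these cells, with a ratio of 0.519 that turned to 2.42 as a mean over cells. In the Pi16 adventitial-like cells it was at 7.41 and 14.4 CPM, a ratio of 1.94 that turned to 0.544 with likely doublets left out and to 0 with no hemoglobin limit, where 4 UMIs were left. In the PBS library Cyp26b1 and Aldh1a2 were thus both higher in the sublining-like than in the adventitial-like cells. For Aldh1a2, however, the adventitial-like cells led in PBS with log-normalized, unintegrated counts and with cells classed singly. Prg4 lining-like fibroblasts numbered 32 and 7 cells, too few to compare, and held Aldh1a3 at 158 and 130 CPM and Aldh1a2 at 30.9 and 94.3 CPM. Tendon-like fibroblasts (46 and 17 cells) held Aldh1a1 at 130 and 210 CPM. An unnamed subcluster led by Comp and Eln (158 and 67 cells) had Aldh1a2 at 55.0 and 9.38 CPM and Aldh1a3 at 4.78 and 40.4 CPM. Another led by Tenm2, Sfrp5, Cldn1 and Itgb4 (27 and 15 cells) held Cyp26b1 at 120 and 180 CPM.

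**Figure D4:**
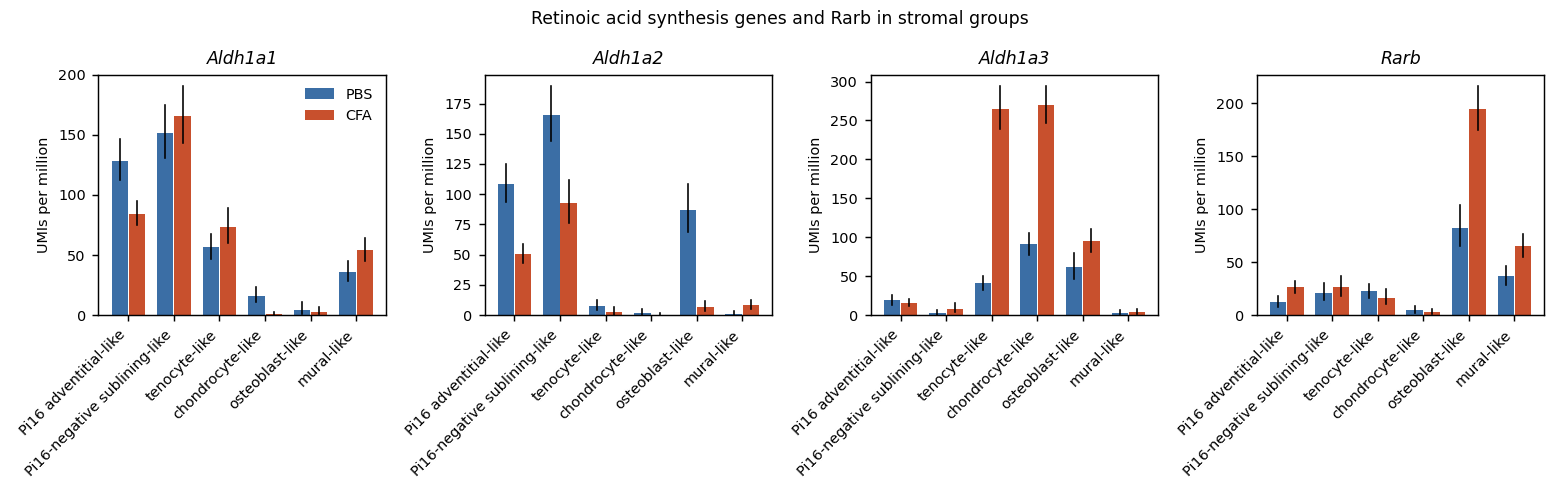
Levels of Aldh1a1, Aldh1a2, Aldh1a3 and Rarb in CPM (y axes, from 0) in fibroblast subtypes and in tenocyte-, chondrocyte-, osteoblast- and mural-like cells of the PBS (blue) and CFA (orange) library, with exact 95% Poisson intervals. Aldh1a3 was at 265 in tenocyte-like and 270 in chondrocyte-like cells of the CFA library, against 41.0 and 90.8 in PBS.

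Aldh1a3 was the counted member with the highest ratio in tenocyte-like and in chondrocyte-like cells. In tenocyte-like cells (154 and 111 cells) it had 86 UMIs in 44 cells in PBS and 361 UMIs in 57 cells in CFA, a ratio of 6.46 (5.10 to 8.28), with at most 50 UMIs in a cell. With 50 principal components the class held 12 UMIs and the ratio was 0.465. It was the only called member of 5 counted, against 10.2% of all genes. When fibroblast- and tenocyte-like cells were clustered again together, Aldh1a3 separated from the tendon genes. In the subcluster led by Pdzrn4, Tnn, Alpl, Runx2 and Bglap (110 and 95 cells), whose last 3 are osteoblast genes, it was at 44.3 and 337 CPM, and in the tendon-like subcluster at 19.5 and 15.9 CPM.

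In chondrocyte-like cells (86 and 85 cells) Aldh1a3 had 159 and 514 UMIs, in 30 and 59 cells, and a ratio of 2.97 (2.48 to 3.58). There 3 of 4 counted members were called, against 12.2% of all genes. A cluster of 29 PBS cells led by Cytl1 and Mia had no CFA cells. Within the other cluster (57 and 85 cells, led by Col2a1 and Ibsp) Aldh1a3 was at 106 and 270 CPM, a ratio of 2.54 (2.12 to 3.06), with up to 89 UMIs in a cell. Cyp26b1 was called lower over the class, at 34.8 and 16.8 CPM, but within that cluster it was at 21.8 and 16.8 CPM, a ratio of 0.771 (0.457 to 1.30). Aldh1a1 had 28 UMIs in PBS and 1 in CFA over the class, and under 20 UMIs over both libraries within that cluster, where it was not counted.

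Osteoblast-like cells (71 and 114 cells) had 2 of 4 counted members called, against 15.1% of all genes. Rarb was at 82.7 and 195 CPM, a ratio of 2.35 (1.83 to 3.06). It lay in a cluster with Runx2, Sp7 and Alpl (36 and 86 cells), where it was at 188 and 279 CPM, a ratio of 1.49 (1.15 to 1.94), and not in the Bglap-rich cluster (35 and 28 cells; 5.73 and 12.6 CPM). Of the 9 osteoblast markers only those 3 passed in the former cluster. None was among its leading genes, which began with Dok6, Gpc5 and Plppr1, so its name rests on few markers. The former cluster was a larger part of the class in CFA. Aldh1a3 was at 130 and 139 CPM within it, a ratio of 1.06, against 1.54 over the class. Aldh1a2 lay in the Bglap-rich cluster, at 147 CPM in PBS and 21.7 in CFA, with 77 UMIs in 11 PBS cells and as many as 37 in a cell.

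Schwann-like cells (307 and 377 cells) had 2 of 4 counted members called, both higher in CFA, against 11.3% of all genes 8.33% higher and 2.97% lower. Rarb was at 21.6 and 43.6 CPM, a ratio of 2.02 (1.33 to 3.13). Aldh1a1 was at 11.1 and 24.2 CPM, a ratio of 2.18 (1.22 to 4.06) on 17 UMIs in 12 cells and 45 UMIs in 11 cells. With likely doublets (5% of cells by score) left out, 0 members were called. Most of it lay in a small cluster with Scn7a and Cdh19, genes of non-myelinating Schwann cells (43 and 37 cells), at 40.7 and 142 CPM. By cluster, Rarb had a ratio of 2.88 (1.24 to 7.45) in 1 myelinating cluster (104 and 134 cells) on 8 and 23 UMIs. A cluster of 3 PBS and 16 CFA cells led by Fabp7 held 34 of its 81 CFA UMIs. In the largest cluster (157 and 190 cells) Rarb had 8 and 7 UMIs, a ratio of 0.894. Dhrs3 had 55 and 41 UMIs over the class, a ratio of 0.614, with ratios of 0.482 (0.229 to 0.968) and 0.397 (0.140 to 0.997) in those myelinating clusters.

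The wider pathway was described with a list of 59 genes, of which 51 were not members and 13 had under 20 UMIs over both libraries. Of the non-members, endothelial-like cells had 25 counted, 2 higher and 5 lower in CFA, beside 4.89% and 6.33% of all genes. Among the higher ones, the retinoic acid-induced gene Rai14 was at 134 and 299 CPM. Fabp5, which can carry retinoic acid and fatty acids, was at 971 and 381 CPM, and Hic1 at 18.4 and 5.80. Rarres1 (16.4 and 7.46 CPM), Rarres2 (14.6 and 2.76) and Rbp4 (4.11 and 0.138) were also lower.

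In fibroblast-like cells 31 non-members were counted, 1 higher and 4 lower, beside 8.28% and 5.22% of all genes. Crabp2, a retinoic acid carrier, was at 5.24 and 44.6 CPM, a ratio of 8.50 (5.84 to 12.8). In the Pi16 adventitial-like subtype it had 0 UMIs in PBS and 168 in CFA. Cyp26a1, the other main degrading enzyme, had 45 UMIs in PBS and 0 in CFA. Stra6, the retinol uptake receptor (5.58 and 2.60 CPM), Adh7 (14.4 and 4.16) and Rarres1 (11.8 and 2.08) were lower too.

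Mural-like cells had 22 non-members counted, 1 higher and 4 lower, beside 3.76% and 5.07% of all genes. Dgat1 was higher (17.9 and 39.6 CPM), and Scarb1 (52.3 and 25.8), Rara (22.1 and 9.35), Cd38 (21.5 and 3.56) and Hic1 (19.5 and 8.02) were lower. Schwann-like cells had 23 counted, with Crabp1 (3.93 and 11.3 CPM) and Tgm2 (7.20 and 18.9) higher and 0 lower, beside 8.33% and 2.97% of all genes, so the share of higher list genes was near that of all genes. Some other list genes were highest outside these classes. Dgat1 (retinol esters) was at 330 and 439 CPM and Dhrs9 (retinol oxidation) at 121 and 176 CPM in neutrophil-like cells. Rdh10, which makes retinaldehyde, was at 65.0 and 178 CPM in osteoblast-like cells. There Rarg, a second retinoic acid receptor, was at 79.4 and 116 CPM, against 108 and 108 CPM in chondrocyte-like cells, which led in PBS. Rarres2, by contrast, was highest in fibroblast-like cells, at 375 and 340 CPM.

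Over 30 profiles (15 classes and subtypes in both libraries, which share libraries and, for subtypes, cells), the genes with levels most like each member were sought among 8408 genes by Pearson's r of log2(CPM + 1). For Rbp7 they were Sox17, Flt1 and Gata2 (r = 0.97, 0.96 and 0.96), the first a known arterial transcription factor. For Cyp26b1 they were Igfbp7, Nfe2l1 and Kctd17 (0.85, 0.82 and 0.82), and for Adh1 Fmo2, Fmo1 and Ppp1r2 (0.89, 0.86 and 0.85). For Dhrs3 they were Mfhas1, Adam15 and Abcg2 (0.84 each). Aldh1a2 was closely matched by Cyp1b1 and Fgf10 (0.95 and 0.92), and Aldh1a1 like Lama2, Rarres2 and Rgma (0.92, 0.91 and 0.90). Aldh1a3 was most like Sema3d, Cgref1 and Hectd2 (0.90, 0.88 and 0.88), and Rarb like Nmnat2, Adgra2 and Nfe2l3 (0.88, 0.84 and 0.84). Among the members, the highest r was 0.75, between Cyp26b1 and Adh1, followed by 0.74 between Cyp26b1 and Dhrs3. The lowest was -0.50, between Rbp7 and Aldh1a1.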

How the data were processed

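Whole joints had been sequenced by droplet scRNA-Seq, with 1 library of PBS and 1 of CFA joints. The authors deposited unnormalized UMI counts per gene and barcode, made with Cell Ranger 7.0.1 on mm10 per the submitters' processing notes. The CFA cell number stated for the study exceeds the deposited CFA barcodes. Of 7671 PBS and 5709 CFA barcodes, 2667 and 4014 passed the limits. Cells were clustered in Seurat 5.3.0 (R 4.3.3) after SCTransform and integration on 2977 genes, with the retinoid genes left out, 200 principal components and resolution 1.5. Endothelial-like cells, and fibroblast- and tenocyte-like cells, were clustered again with 30 components and resolution 0.3.

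A cluster was named when at least 3 markers of a class were in 25% of its cells and 2-fold higher than in other cells. Levels were taken within each library and averaged, weighted by its cells in the cluster, so neither library had to pass alone. Where the best class had fewer than 3, endothelial or fibroblast subtype markers could give the name, as Prg4 lining markers did for a fibroblast-like cluster. The naming rule was revised after a first naming was seen, and a veto on gland genes was added then, so a difference from the study may come from rebuilt names. Counts were summed per class, and levels and ratios got exact Poisson and binomial intervals with scipy 1.17.1. Scrublet (scanpy 1.11.5) marked 21 PBS and 2 CFA cells as doublets, too few to rely on, and none was removed. Named were the members, pathway genes past 2-fold or leading their group, and the 3 genes most like each member, except items not reported here. The members and lists were chosen with earlier results of these data known. The ratio step and the naming step were tested on simulated counts, and the other steps were not. Cells are not replicates, and with 1 library per treatment no p-value was computed.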

Additional observations from a re-analysis of the deposited data

Results flagged for a closer look

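Some members had CFA to PBS ratios past 2-fold in opposite directions in different cell groups. With 1 library per treatment the difference between the groups was not tested. Rbp7 had a ratio of 3.64 in Car4 capillary-like cells, against 0.467 in Plvap venular-like and 0.372 in mural-like cells. The mural value turned to 2.56 with cells classed singly. Endothelial markers summed to 2198 CPM in PBS and 701 in CFA in the mural cluster that held most Rbp7, and mural markers to 1253 and 109 CPM in the venular-like cells, and their part was not tested. Rarb had a ratio of 2.35 in osteoblast-like and 2.02 in Schwann-like cells, against 0.456 in endothelial-like cells. In Car4 capillary-like and arterial-like cells its ratio was 0.729, within 2-fold and with intervals that included 1. Over the settings Rarb ranged from 0.434 to 0.671 in endothelial-like, 1.31 to 2.09 in Schwann-like and 1.67 to 4.53 in osteoblast-like cells. Not every setting thus put it past 2-fold.

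Aldh1a1 had a ratio of 2.18 in Schwann-like and 0.0329 in chondrocyte-like cells, the latter on 28 and 1 UMIs, so that its counting interval is wide (0.000803 to 0.199). The chondrocyte-like class held a cluster of 29 PBS cells with no CFA cells. In its other cluster Aldh1a1 had under 20 UMIs over both libraries. Aldh1a2 had a ratio of 7.81 in mural-like cells, where 16 of the 18 CFA UMIs lay in 1 cell and 0 CFA UMIs were left without likely doublets, and 0.0786 in osteoblast-like cells.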

How the results depend on the processing

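No paired analysis was possible because there is 1 library per treatment. Over all ratios and settings, 666 values stayed within the counting interval of the reported value, 83 moved out of it and 6 reversed, meaning that a ratio past 2-fold crossed 1 and stayed above 0. Cyp26b1 in tenocyte-like cells gave no ratio with 50 components, where 1 UMI was left. The reversed values were Adh1 in arterial-like cells with no hemoglobin limit (1.35), Aldh1a3 in tenocyte-like cells with 50 components (0.465, on 12 UMIs), Aldh1a3 in endothelial-like cells with log-normalized, unintegrated counts (1.09) and as a mean over cells (1.66), and Aldh1a2 (0.855) and Rbp7 (2.56) in mural-like cells with each cell classed on its own. Aldh1a2 in mural-like cells was also at 0 without likely doublets (2 UMIs left). Of ratios within 2-fold, some crossed 1 as well. As a mean over cells these included Cyp26b1 in sublining-like (2.42) and fibroblast-like cells (1.59) and Adh1 in endothelial-like cells (1.31). With own classes they included Cyp26b1 (4.16), Rarb (2.55) and Dhrs3 (2.31) in tenocyte-like and Aldh1a3 in fibroblast-like cells (2.33). With 50 components Aldh1a3 in fibroblast-like cells was at 2.61. Aldh1a1 in Pi16 adventitial-like cells was at 1.46 with log-normalized counts, and without likely doublets Cyp26b1 was at 0.544 there and at 1.54 in tenocyte-like cells. Aldh1a3 in osteoblast-like cells fell below 1 under 3 settings that left 9 UMIs or fewer.

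The count of members past 2-fold in endothelial-like cells, 3, became 1 with 50 components, log-normalized counts, retinoid genes kept, each cell classed on its own, the 5% of cells with the highest doublet score left out or a mean over cells, and 5 with no minimum of UMIs. That in fibroblast-like cells, 0, became 2 with 50 components and 1 with log-normalized counts, own classes or no minimum. That in mural-like cells, 3, became 1 without likely doublets. That in Schwann-like cells, 2, became 1 with no hemoglobin limit, a mitochondrial limit of 20%, own classes, the median ratio as scale or a mean over cells, 0 with log-normalized counts or without likely doublets, and 4 with no minimum. Of 26 leading subtypes, 16 were kept with own classes. The cause was not tested.

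Cyp26b1 in endothelial-like cells ranged from 0.312 to 0.384, and in venular-like cells from 0.154 to 0.774. Rbp7 in Car4 capillary-like cells ranged from 3.10 to 4.54 and Aldh1a3 in chondrocyte-like cells from 2.16 to 3.39. Leaving out the endothelial subcluster with few UMIs was chosen after seeing the data.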
